A study of Mus musculus with 8 samples.

Results

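The retina of wild-type (WT) C57BL/6J mice at postnatal day 15 (P15) was described by the transcripts that 4 arrays measured, 1 array for each of 4 mice. These 4 arrays are all the WT arrays among the 8 arrays of the series. The other 4 came from *dmbo* mice, homozygous for a nonsense mutation of the homeobox gene *Hmx1*, and were not used here. Each retina was dissected under a microscope, frozen, and its total RNA isolated on its own. The RNA was amplified from 100 ng and hybridized to the Affymetrix Mouse Gene 1.0 ST array, on which a gene is read by a probe set, a group of short probes along its exons. The members are all probe sets that carried a single gene symbol, 25004 of the 28350 in the table, which named 21652 genes. Another 3344 probe sets carried no symbol and 2 carried several. A gene is given by its brightest probe set, as the mean log2 signal over the 4 arrays ± SD (n = 4), with its rank among the 21652 symbols, where rank 1 is the brightest. One unit on the log2 scale is a doubling of signal. A probe set's signal depends on its own probes as well as on its transcript, so ranks order signals and not transcript numbers. With 1 group no test between groups was possible, and precision is set by how few arrays there were.

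The retina converts light into nerve signals in layers. Rods, which dominate the mouse retina, and cones hold visual pigment in a stack of membranes, the outer segment. Light activates the pigment, the G protein transducin and then a phosphodiesterase that removes cyclic GMP, which closes a channel and lowers glutamate release at the ribbon synapse. Bipolar cells carry the signal to ganglion cells, horizontal and amacrine cells modulate it, and Müller glia clear glutamate and feed the neurons. Around eye opening, at about the age studied, cell division in the mouse retina has ended and the outer segments are still growing.

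The signals of the 21652 symbols ranged from 2.92 to 14.16, with a median of 8.35, and 95% of them were at or under 11.00. A total of 3433 symbols (15.9%) exceeded 10, 252 (1.16%) exceeded 12 and 42 exceeded 13. The array medians over all probe sets were 8.19 to 8.26, and the correlation between arrays over probe sets was 0.994 to 0.997. The tables hold no call of presence, so olfactory receptors, which belong to the nose, served as a reference for signals that a retina is not thought to need. Their 1115 symbols had a median of 5.94 and a 95th percentile of 7.52, and 14796 symbols (68.3%) lay above that percentile. Above the 99th percentile, 8.12, there were 11950 (55.2%). A signal over 7.52 is termed above the reference, which describes its place and is no proof of a transcript. The brightest olfactory receptor was *Olfr767*, with 9.23, 9.33, 9.66 and 9.81 in WT replicates 1 to 4, and it was among 56 olfactory receptors past the percentile that they themselves define.

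**Figure D1:**
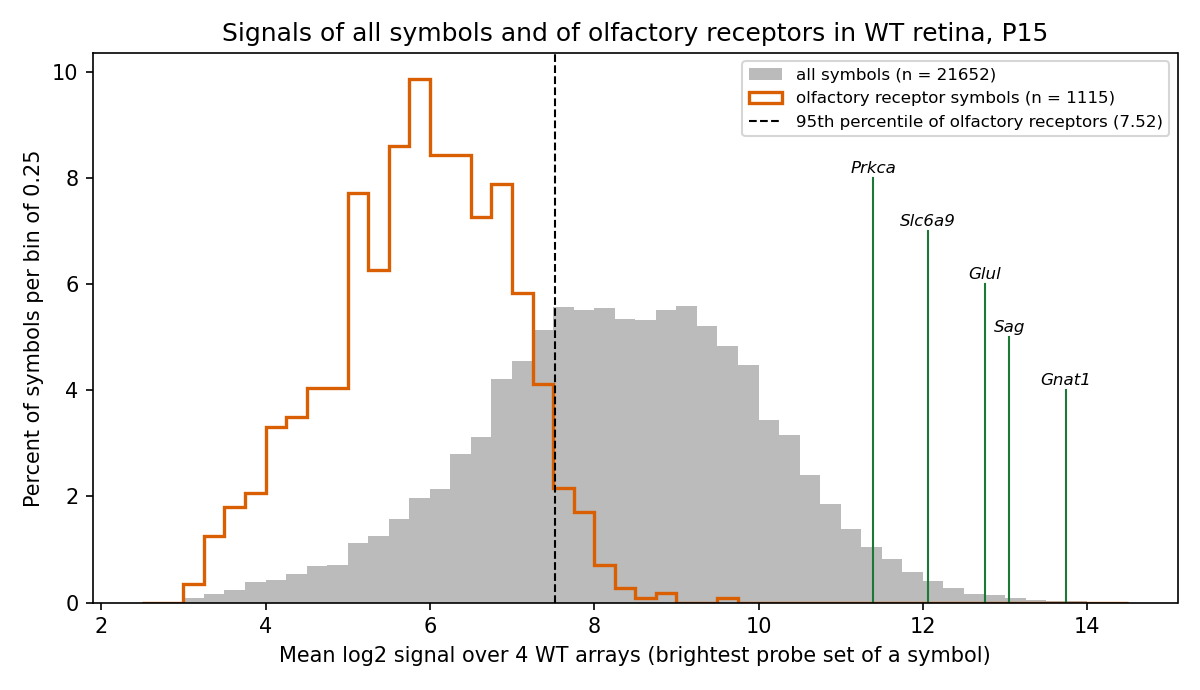
The histogram gives the percent of symbols per bin of 0.25 log2 for all 21652 symbols (grey) and for 1115 olfactory receptors (orange line), as means over 4 WT arrays. The dashed line is the olfactory 95th percentile (7.52), and the green lines, whose heights carry no value, place the 5 marker genes, which all lie above 11.

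The marker genes of 4 retinal cell classes were all in the bright tail, which fits the label of the tissue. *Gnat1*, the transducin alpha subunit of rods, gave 13.75, 13.73, 13.77 and 13.73 and had rank 10. *Sag*, the arrestin that ends the light response of rods, gave 13.14, 13.04, 13.02 and 13.01 (rank 37). *Glul*, the glutamine synthetase of Müller glia, gave 12.79, 12.73, 12.76 and 12.74 (rank 71), from a probe set that the array's annotation marks as able to bind related sequences. Its other probe set gave 12.55 ± 0.04. *Slc6a9*, which takes up glycine in glycinergic amacrine cells, gave 12.10, 12.09, 12.02 and 12.04 (rank 231). *Prkca*, the protein kinase that marks rod bipolar cells, gave 11.49, 11.45, 11.37 and 11.30 (rank 628). For each of the 5 the 4 arrays lay within 0.2 of each other, and all exceeded the reference by more than 3.

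The 25 brightest symbols, 13.25 or more, held transcripts of several kinds. The first were RNAs that all cells carry: 28S and 18S ribosomal RNA (*LOC236598*, 14.16 ± 0.04, and *Rn18s*, 13.97 ± 0.02), the 7SK RNA (*Rn7sk*, 14.01 ± 0.01), the Y3 RNA (*Rny3*, 13.85 ± 0.04), glyceraldehyde-3-phosphate dehydrogenase (*Gapdh*, 13.87 ± 0.02), beta-actin (*Actb*), alpha-tubulin (*Tuba1b*) and ubiquitin (*Ubb*). The second were mitochondrial transcripts, among them *ND2* (13.86 ± 0.06), *CYTB* (13.76 ± 0.05) and *COX1* (13.69 ± 0.06). Genes of the rod cascade were there too, among them *Gnat1*, *Pde6g* and *Gnb1*, which other cells also use, with the photoreceptor retinoid carrier *Rbp3* (13.27 ± 0.05) and *Reep6* (13.50 ± 0.06), a protein of the endoplasmic reticulum that rods need. The symbols *Gm10293*, *Gm12070* and *Gm5523* among the 25 are annotated as copies of *Gapdh*, and 8 of the 12 such symbols were in the top 100. *Gapdh* itself had 35 probe sets, from 12.97 to 13.87, and all 35 were marked for related sequences, so that their signals cannot be assigned to 1 gene. The same mark was on 13 of the top 25 and 54 of the top 100 symbols, against 5.32% of all symbols.

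The order within this group was only partly resolved. Of the 24 pairs of neighbours in the top 25, 20 overlapped in their array values. The membership was steadier, since 94 of the top 100 were in the top 100 of every array, and the largest SD in the top 100 was 0.17. With marked probe sets left out, 13 of the 25 symbols remained, and *ND2*, *Rny3*, *Gnb1*, *CYTB* and *Gnat1* were among the first of them. The creatine kinase *Ckb*, the synaptic genes *Snap25* and *Syt1*, the outer segment gene *Prph2* and *Sag* then entered it. Of the 93 symbols annotated with the Gene Ontology term visual perception, 11 were in the top 100 and 40 in the top 1000, and their median was 10.73.

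The rod phototransduction genes formed the brightest list of retinal genes. All 21 members exceeded the median of all symbols, 19 were in the top 1000 and 10 in the top 100, and the list's median was 12.43, against 8.35 for all symbols. *Gnb1*, the transducin beta subunit, gave 13.78, 13.77, 13.77 and 13.79 (rank 8). With *Gnat1* at 13.73 to 13.77, these values met, so no order of the signals is claimed. The gamma subunit *Gngt1* gave 11.94 ± 0.11. The phosphodiesterase subunits *Pde6g*, *Pde6b* and *Pde6a* gave 13.25 ± 0.03, 12.77 ± 0.02 and 12.71 ± 0.02. The cyclic GMP channel subunits *Cnga1* and *Cngb1* gave 11.84 ± 0.05 and 11.28 ± 0.07. Among genes that end the response, the receptor kinase of rods *Grk1* gave 11.78 ± 0.04, its calcium sensor *Rcvrn* 12.60 ± 0.07, and the transducin GTPase activator *Rgs9* with its partners *Gnb5* and *Rgs9bp* 12.43 ± 0.01, 12.62 ± 0.05 and 10.69 ± 0.05. The guanylate cyclases that restore cyclic GMP, *Gucy2f* (11.39 ± 0.03) and *Gucy2e* (10.65 ± 0.04), were at the lower end, and *Gucy2e*, with 10.70, 10.64, 10.65 and 10.60, was the dimmest of the list. No member had an SD over 0.11, and the list's mean in the 4 arrays was 12.27, 12.26, 12.29 and 12.24. Since whole retinas were measured, more cells of a type and more RNA per cell cannot be told apart in any of these signals.

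**Figure D2:**
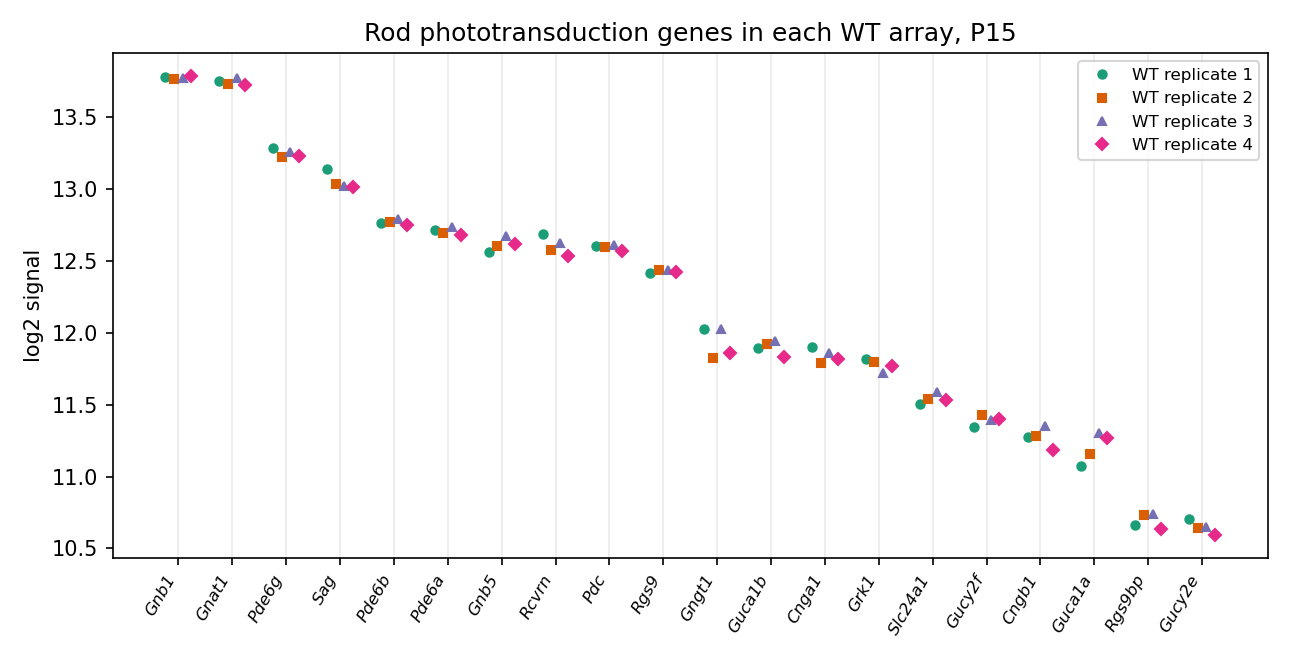
Each column is 1 of 20 of the 21 rod phototransduction genes, ordered by mean, and each point is the log2 signal of 1 WT array (4 symbols for replicates 1 to 4). The points of a gene lie close together, with SDs of at most 0.11, while the genes plotted span 10.65 to 13.78.

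The photoreceptor transcription factors CRX and NRL are known to bind DNA with core letters of their own, TAATCC for CRX while NRL takes TGCTGA, and promoters of the bright rod genes are shown for these letters. RefSeq promoters of GRCm38.p6, 250 bases before to 50 after the start, were matched for 14 of the 21 rod genes. The 4 brightest of these are printed 5′ to 3′, and capitals mark the CRX core, the NRL core, the TATA box (searched as TATAAA) and the GC box (searched as GGGCGG), each on either strand, so that the reverse complements appear too.
*Gnb1*, chr4:155491111-155491410, plus strand: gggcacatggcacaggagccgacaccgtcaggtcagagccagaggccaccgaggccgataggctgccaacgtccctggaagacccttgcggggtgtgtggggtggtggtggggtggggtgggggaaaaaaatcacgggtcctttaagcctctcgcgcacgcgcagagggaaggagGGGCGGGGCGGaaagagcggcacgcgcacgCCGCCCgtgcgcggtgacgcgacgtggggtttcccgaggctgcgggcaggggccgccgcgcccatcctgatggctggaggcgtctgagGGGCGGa
*Sag*, chr1:87803430-87803729, plus strand: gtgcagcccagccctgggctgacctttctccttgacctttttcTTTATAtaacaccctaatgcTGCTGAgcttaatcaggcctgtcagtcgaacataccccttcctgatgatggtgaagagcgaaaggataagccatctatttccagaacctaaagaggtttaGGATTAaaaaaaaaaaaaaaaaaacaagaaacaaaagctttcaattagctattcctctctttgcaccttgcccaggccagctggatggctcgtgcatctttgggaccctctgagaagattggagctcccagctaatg
*Pde6b*, chr5:108388123-108388422, plus strand: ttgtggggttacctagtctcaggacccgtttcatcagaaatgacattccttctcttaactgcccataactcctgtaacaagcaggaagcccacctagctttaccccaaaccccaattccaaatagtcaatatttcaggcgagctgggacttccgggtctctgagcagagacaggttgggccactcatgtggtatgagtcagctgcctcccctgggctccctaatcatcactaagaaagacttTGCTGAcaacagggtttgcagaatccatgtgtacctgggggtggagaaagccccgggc
*Gnb5*, chr9:75306038-75306337, plus strand: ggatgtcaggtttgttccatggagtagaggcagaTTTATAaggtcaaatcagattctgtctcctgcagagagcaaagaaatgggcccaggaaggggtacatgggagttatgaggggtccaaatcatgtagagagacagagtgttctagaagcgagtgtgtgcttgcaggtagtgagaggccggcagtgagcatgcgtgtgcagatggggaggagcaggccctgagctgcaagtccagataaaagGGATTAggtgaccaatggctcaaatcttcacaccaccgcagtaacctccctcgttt
*Sag* held the CRX core, the NRL core and the letters TATAAA once each, and *Gnb5* held the CRX core and TATAAA. In both, TATAAA lay on the opposite strand, as TTTATA, and near the upstream end of the window, so it is not read as a TATA box. *Pde6b* held the NRL core alone, and *Gnb1*, which all cells use, held 4 GC boxes and neither of the photoreceptor cores. TAATCC stood in 8 of the 14 rod promoters (57.1%), and TGCTGA in 4 (28.6%). Over the 16179 promoters matched to all symbols these shares were 6.41% and 17.4%. Other lists varied widely. TAATCC stood in 45.5% of 11 pigment epithelium promoters and in 17.6% of 17 outer and inner segment promoters. TGCTGA stood in 62.5% of 8 ganglion cell promoters, in 46.2% of 13 of tissues outside the eye and in 11.1% of 9 cone promoters. Among the matched promoters the rod share of TGCTGA was thus not particular to rods. With 14 of 21 rod genes matched, the rod count is void as a statement on the whole list. The same limit holds for 8 of 15 ganglion cell, 9 of 13 cone and 11 of 16 pigment epithelium genes matched. A match of letters is a description of the window and not a binding site.

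Genes that build the photoreceptor followed closely. The outer and inner segment list (20 members) had a median of 11.82, with all members above the median of all symbols. *Prph2*, the protein that bends the disc rim, gave 13.08, 13.12, 13.12 and 13.12 (rank 33), the axonemal protein *Rp1* gave 12.85 ± 0.04, the retinoid flippase *Abca4* 12.47 ± 0.04 and the retinol dehydrogenase *Rdh12* 12.38 ± 0.04. *Fscn2*, an actin bundler, was the dimmest with 9.78 ± 0.07. Among the 11 photoreceptor transcription factors (median 11.68) *Neurod1*, *Rorb*, *Crx* and *Otx2* led with 12.26 ± 0.09, 12.09 ± 0.05, 11.96 ± 0.07 and 11.87 ± 0.04. *Nr2e3*, which represses cone genes in rods, gave 11.82 ± 0.06, whereas *Nrl*, the rod-determining factor, gave 10.48 ± 0.03 (rank 2046). *Prdm1*, which acts earlier in photoreceptor fate, gave 9.16 ± 0.07.

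Cone genes were split. The opsins *Opn1mw* (12.21 ± 0.11) and *Opn1sw* (12.15 ± 0.30) and the cone transducin beta subunit *Gnb3* (12.17 ± 0.07) exceeded 12, and cone arrestin *Arr3* (11.29 ± 0.07) and *Gnat2* (11.10 ± 0.04) exceeded 11. The cone channel subunits *Cngb3* and *Cnga3* gave 9.73 ± 0.05 and 8.56 ± 0.02. The dimmest of the 13 was *Rxrg*, a nuclear receptor that regulates cone opsins, with 8.35 ± 0.04. *Opn1sw*, the short-wavelength opsin, was the only symbol over 12 with an SD over 0.3. It gave 12.52, 12.14, 11.78 and 12.15, a range of 0.74, and *Opn1mw* gave 12.16, 12.12, 12.38 and 12.17. The array with the lowest *Opn1sw* signal, replicate 3, had the highest *Opn1mw* signal. Mouse cones hold these opsins in opposite gradients from dorsal to ventral retina, and how much of each retina was recovered is not recorded, so its part in these values was not tested. Other opsins reached from *Rgr* (10.54 ± 0.37) and melanopsin (*Opn4*, 8.49 ± 0.11) to *Opn5* (6.28 ± 0.10), which was under the reference.

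The connecting cilium carries proteins from the cell body to the outer segment, and its genes (26 members, median 10.17) spread widely. *Rpgrip1*, which anchors the gating protein RPGR, gave 12.75, 12.66, 12.69 and 12.68 (rank 80), while *Rpgr* itself gave 10.22 ± 0.05. The BBSome, a cargo adaptor of cilia, was represented by *Bbs9* (12.10 ± 0.01), *Ttc8* (11.50 ± 0.06), *Bbs7* (11.49 ± 0.04) and others down to *Bbs4* (10.50 ± 0.06). The kinesin *Kif17* (7.66 ± 0.07) was close to the reference. The Usher genes, when mutated, cause deafness with retinal degeneration in humans. Of these, *Pcdh15* gave 11.48 ± 0.04, *Gpr98* 10.20 ± 0.05, and *Ush1c* and *Cdh23* 7.60 ± 0.11 and 7.57 ± 0.04. The other probe set of *Pcdh15* gave 8.11 ± 0.11, under the median of all symbols.

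The genes of the ribbon synapse and vesicle release were the brightest list of neuronal genes other than those of photoreceptors, with a median of 11.40 and all 21 above the median of all symbols. The fusion protein *Snap25* gave 13.15, 13.07, 13.16 and 13.07 (rank 32), the calcium sensor *Syt1* 12.98 ± 0.04 and the vesicular glutamate transporter *Slc17a7* 12.44 ± 0.06. The calcium channel of the photoreceptor terminal, *Cacna1f* with *Cacna2d4* and the regulator *Cabp4*, gave 11.52 ± 0.06, 11.87 ± 0.03 and 11.39 ± 0.06. *Syn1* (10.04 ± 0.11) and *Syn2* (9.47 ± 0.06), synapsins of conventional synapses that ribbon synapses lack, were in the lower part, and the scaffold *Bsn* (9.20 ± 0.08) was the dimmest.

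Most genes of the inner retinal lists were above the reference, which 68.3% of all symbols passed. They were 17 of 17 bipolar, 8 of 8 horizontal, 21 of 22 amacrine and 14 of 15 ganglion cell genes. Bipolar cell genes (17 members, median 10.36) included *Prkca*, the cation channel of ON bipolar cells *Trpm1* (11.36 ± 0.04) and the calcium-binding *Cabp5* (11.30 ± 0.07), and the receptor of the same synapse, *Grm6*, gave 10.81 ± 0.08. *Nyx*, the nyctalopin that places TRPM1 at the synapse, gave 7.82 ± 0.03, near the reference. The 8 horizontal cell genes had a median of 8.67, with *Prox1* (10.93 ± 0.08), *Calb1* (10.65 ± 0.06) and *Sept4* (10.21 ± 0.04) apart from the rest, which ended with the horizontal cell factor *Lhx1* at 7.77 ± 0.05. The first 2 are also made by other retinal neurons.

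Amacrine cell genes (22 members, median 9.32) ranged from *Slc6a9* and other bright members such as calretinin (*Calb2*, 12.04 ± 0.07) to the genes of sparse subtypes. Among these were *Th* for dopaminergic cells (8.22 ± 0.06), *Chat* for starburst cells (8.21 ± 0.08) and *Vip* (7.88 ± 0.10). *Neurod6*, a factor of a small amacrine subtype, gave 5.06, 4.99, 4.96 and 5.01, below the reference in all 4 arrays. Ganglion cell genes (15 members, median 9.79) were led by neurofilament *Nefl* (12.07 ± 0.03), *Stmn2* (11.49 ± 0.05), *Sncg* (11.25 ± 0.02) and *Thy1* (10.98 ± 0.06). Their more specific factors were lower in signal, with *Pou4f2* at 9.23 ± 0.02, *Pou4f1* at 8.12 ± 0.09 and *Tbr1*, of a subset of these cells, at 7.36 ± 0.06.

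Receptor subunits for the transmitters GABA, glycine and glutamate were mostly above the reference, which 68.3% of all symbols passed. Of 21 GABA and glycine receptor subunits 19 were above it (median 9.93), among them *Gabrr1* (11.66 ± 0.02), a subunit of the GABA receptor at bipolar cell terminals, and *Glrb* at 10.55 ± 0.02. *Gabra5* (7.34 ± 0.05) and the cerebellar *Gabra6* (5.87 ± 0.16) were under it. All 23 glutamate receptor subunits were above the reference (median 9.54), from *Gria2* (10.86 ± 0.06), *Grm6*, *Gria4* (10.53 ± 0.03) and *Gria3* (10.36 ± 0.03) to *Grin2c* (7.71 ± 0.07).

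Müller glia genes (14 members) had a median of 10.91. After *Glul* came vimentin (*Vim*, 12.19 ± 0.08), carbonic anhydrase *Car2* (12.11 ± 0.06), *Apoe* (11.76 ± 0.02) and the retinoid-binding *Rlbp1* (11.55 ± 0.03). The potassium channel *Kcnj10* gave 8.83 ± 0.04 and the Notch effector *Hes1* 8.47 ± 0.07. By contrast, genes of astrocytes and of gliosis were low, with a median of 8.04, and *Gfap*, the filament that rises in injured retina, gave 8.24, 8.19, 8.35 and 8.32, at about the median of all symbols. Microglia genes had a median of 7.94, under that of all symbols, and 9 of 13 passed the reference, a share like the 68.3% of all symbols. They included *Trem2* (8.52 ± 0.09) and, as the dimmest, *Aif1* (6.82 ± 0.09). Genes of vessels (13 members, all above the reference) had a median of 8.94. They were led by vitronectin (*Vtn*, 12.06 ± 0.05), which pericytes make but which is no marker of vessels alone, followed by the VEGF receptor *Kdr* (10.51 ± 0.06) and the tight junction gene *Cldn5* (9.52 ± 0.13).

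**Figure D3:**
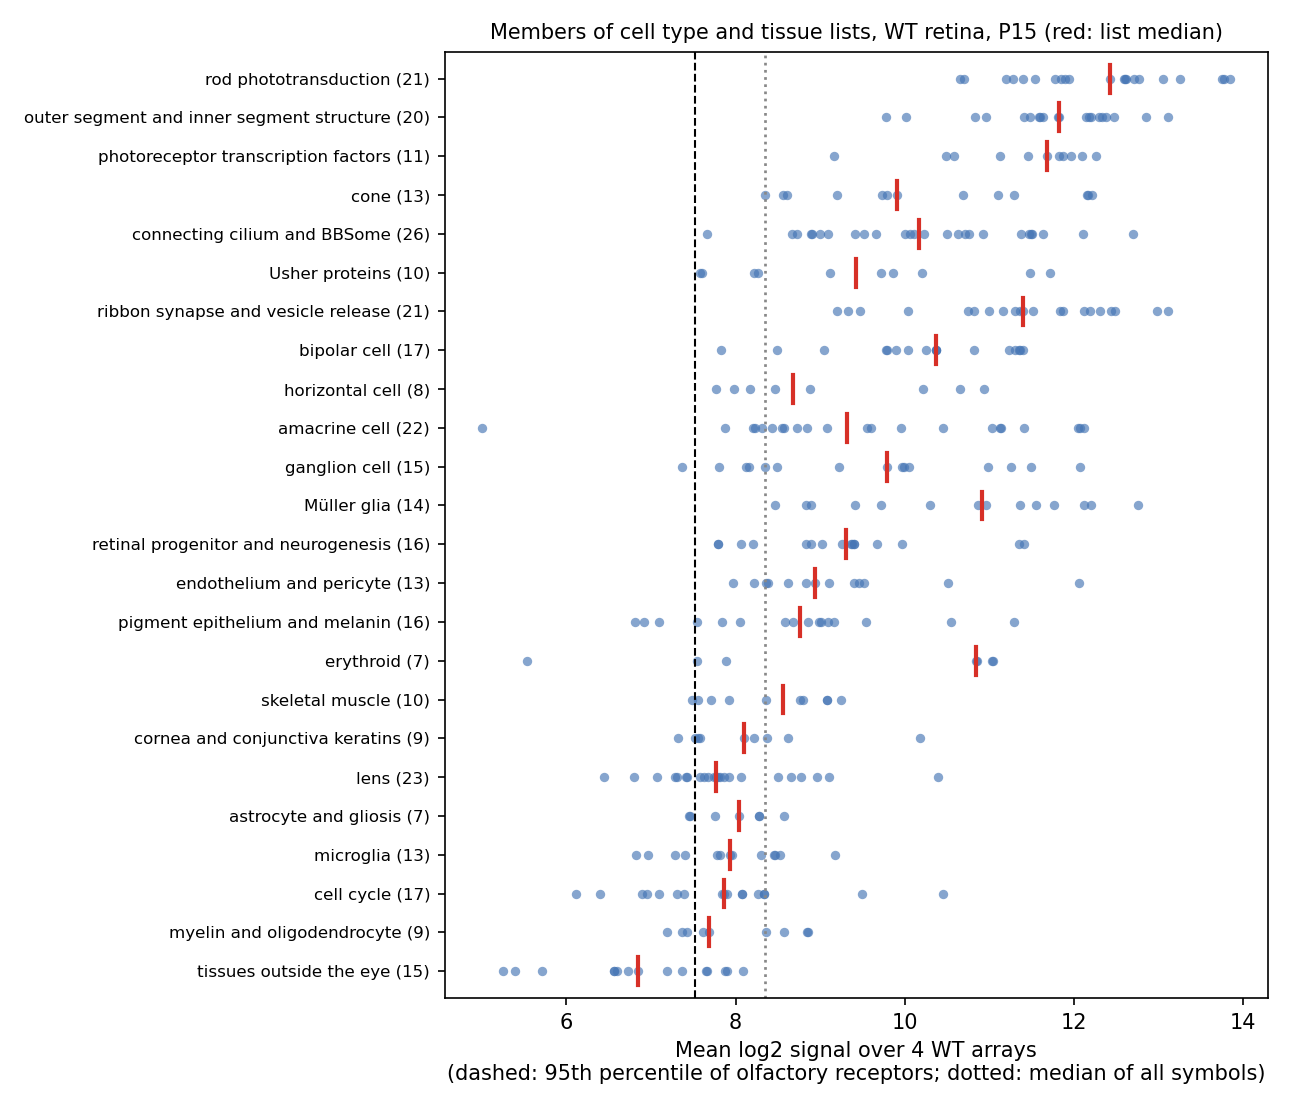
Each point is 1 gene's mean log2 signal over 4 WT arrays, in rows by list with the number of genes in parentheses, and red bars are list medians. Rod phototransduction has the highest median (12.43) and genes of tissues outside the eye the lowest (6.85), under the dashed reference of 7.52 (dotted: median of all symbols, 8.35).

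Genes of tissues that adjoin the retina or lie far from it were measured as well. The pigment epithelium list had a median of 8.76, led by transthyretin (*Ttr*, 11.29 ± 0.34) and *Rgr*. *Rpe65*, the isomerase of the visual cycle, gave 9.01 ± 0.47, and tyrosinase (*Tyr*, 6.81 ± 0.08) was under the reference. The globins *Hbb-b1* and *Hba-a1*, which mark blood, gave 11.17, 10.70, 11.33 and 10.97 and 10.93, 10.53, 11.14 and 10.81, lowest in replicate 2 and highest in replicate 3. All 4 globin probe sets were marked for related sequences, so the copies were not told apart. The red cell enzyme *Alas2* gave 7.55 ± 0.03. Myelin genes, which belong to the optic nerve in mice, had a median of 7.69 with *Mag* at 7.18 ± 0.15. Of 15 genes of tissues outside the eye, 5 exceeded the reference, led by the sperm protamines *Prm1* (8.08 ± 0.06) and *Prm2* (7.90 ± 0.09), and *Fabp1* of gut and liver gave 5.25 ± 0.04. Hox genes, which are silent in the head end of the embryo, had a median of 7.03 with 9 of 39 above the reference. Bitter taste receptors had a median of 5.70 with 1 of 34 above the reference, which 68.3% of all symbols passed.

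The machinery of energy was bright. The list of 10 mitochondrially encoded symbols had a median of 13.37, and 9 of them were in the top 100. By contrast *ND6*, encoded on the opposite strand, gave 8.84. Probe sets marked for related sequences read *COX1*, *COX2*, *ND4L* and *ATP6* among them. The *COX2* probe set used is annotated to chromosome 1, and the one on mitochondrial DNA gave 13.19 ± 0.09. Of 78 nuclear respiratory chain genes 74 exceeded the median of all symbols (median 10.69, led by *Cox6c* at 12.94 ± 0.04), and of 84 ribosomal protein genes 80 did (median 11.21, led by *Rpl39* at 13.15 ± 0.07). These values of *Cox6c* and *Rpl39* came from probe sets marked for related sequences. The unmarked *Cox6c* probe set gave 12.58 ± 0.05, under *Atp5b* at 12.90 ± 0.03. Glycolysis (22 genes) had a median of 11.48, with *Aldoa* at 13.02 ± 0.03, *Ldha* at 12.83 ± 0.08 and *Aldoc* at 12.12 ± 0.06. The hexokinase of most tissues, *Hk1*, gave 11.34 ± 0.03 and *Hk2*, which photoreceptors use, 9.39 ± 0.10. The testis isozymes *Ldhc* (6.66 ± 0.08) and *Pgk2* (6.09 ± 0.14) were under the reference. The sodium pump that keeps the dark current going had a median of 11.05 over 7 subunit genes, with the beta subunit *Atp1b2* at 12.81, 12.74, 12.80 and 12.71 (rank 69), and the sperm subunit *Atp1a4* gave 6.96 ± 0.13.

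Genes that report on the state of the tissue were less uniform. Of 17 cell cycle genes (median 7.86), 10 were above the reference, which 68.3% of all symbols passed. The 2 that exceeded the median of all symbols were the replication clamp *Pcna* (10.45 ± 0.06, from a marked probe set) and *Ccna2* (9.50 ± 0.08). *Plk1* (8.34 ± 0.09) and *Mcm2* (8.33 ± 0.06) were close to that median. *Mki67*, *Top2a* and *Bub1* gave 7.09 ± 0.20, 6.39 ± 0.12 and 6.12 ± 0.17, under the reference. Progenitor genes (16 members, median 9.31) were led by *Pax6* (11.41 ± 0.01), which amacrine cells keep, included *Rax* (9.97 ± 0.06), and ended with *Fgf15* (7.79 ± 0.13). Among clock genes, *Rorb*, the repressor *Nr1d1* (11.50 ± 0.10) and *Rora* (11.18 ± 0.02) were highest in signal, *Per2* gave 8.94 ± 0.07, and *Aanat*, the melatonin enzyme that C57BL/6J mice carry as a defective allele, gave 7.51 ± 0.11. Of the immediate early genes, which respond fast to light, *Btg2* gave 10.52 ± 0.04, *Fos* 8.07 ± 0.06 and *Npas4* 7.57 ± 0.12, while *Egr1* spread from 8.53 in replicate 4 to 9.33 in replicate 1. No source used here gives the hour at which each mouse was killed.

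The genes that the study followed up were spread widely over the scale. *Slc6a9* was at rank 231, the guidance cue *Sema3f* gave 10.46, 10.45, 10.43 and 10.44 (rank 2145) and the receptor phosphatase *Ptpro* gave 9.95, 9.98, 9.85 and 9.86 (rank 3766). The zinc finger factor *Tshz2* gave 8.52, 8.51, 8.53 and 8.38 (rank 10210) and *Hmx1* gave 8.25, 8.24, 8.21 and 8.32 (rank 11269), both near the median of all symbols.

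Promoter letters also varied along the whole scale of signals. The matched promoters, 74.7% of symbols, were divided by signal into 10 groups of equal size, and since fewer than 80% matched, the shares hold for these 16179 symbols alone and are void as a statement on all symbols. The GC box stood in 49.3% of all matched promoters, in 66.1% of those in the brightest group and in 7.30% in the dimmest. TATAAA stood in 12.6% of all, in 4.70% of the group next to the brightest and in 35.7% of the dimmest, and it was more frequent again at the top, in 9.21% of the brightest group and in 23 of the 100 brightest. Of the 928 olfactory receptor promoters, 41.2% held TATAAA and 1.08% the GC box, and 532 of the 1617 promoters in the dimmest group (32.9%) belonged to this family. For the keratin associated proteins of hair, with 42 of 47 matched, 83.3% held TATAAA. Of the lens genes, 21 of 23 were matched and 13 (61.9%) held TGCTGA, against 17.4% of all. Among matched genes the share was 62.5% for 8 of 15 ganglion cell genes and 46.2% for 13 of 15 genes of tissues outside the eye. For 63 of 84 ribosomal protein genes it was 9.52%. NRL shares these letters with other Maf factors, which are known to drive crystallin genes, and their part in the lens share was not tested. Crystallin genes are close relatives, so their promoters are not independent of each other.

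MicroRNA precursors were a dim group, and their sequences are shown because several loci give 1 mature RNA. The 324 precursor symbols, read by 8 to 35 probes each with a median of 25, had a median of 7.10. Of these 133 were above the reference, which 68.3% of all symbols passed. A mature sequence in RefSeq (GRCm38.p6) was matched by symbol for 280. The array's probes lie on the short precursor, so a signal may come from the precursor, its host transcript or the mature RNA, and these were not told apart. The brightest was *Mir181b-1*, with 10.77, 11.01, 10.86 and 10.45, followed by *Mir207* (10.67 ± 0.02) and *Mir344* (10.55 ± 0.08). Mature sequences of the brightest family and of microRNAs known from retina follow, with the seed (bases 2 to 8) in capitals.
miR-181b-5p: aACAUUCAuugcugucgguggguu
miR-181d-5p: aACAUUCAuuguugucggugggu
miR-181a-5p: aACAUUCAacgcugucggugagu
miR-9-5p: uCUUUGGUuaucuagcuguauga
miR-204-5p: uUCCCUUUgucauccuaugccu
miR-211-5p: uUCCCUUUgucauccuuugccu
miR-183-5p: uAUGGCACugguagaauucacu
miR-96-5p: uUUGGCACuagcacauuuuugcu
miR-182-5p: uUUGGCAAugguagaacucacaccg
Values for microRNAs other than the 3 brightest were chosen after they had been seen. The miR-181 sequences share the seed ACAUUCA, and miR-204 and miR-211 share UCCCUUU. *Mir204* and *Mir211* gave 8.95 ± 0.03 and 9.13 ± 0.05. The precursors *Mir9-2*, *Mir9-1* and *Mir9-3*, whose 5p product is the same letters, gave 9.33 ± 0.08, 8.27 ± 0.06 and 6.83 ± 0.03, each read by its own probes. The photoreceptor cluster on chromosome 6 gave 8.09 ± 0.09 for *Mir96*, 8.03 ± 0.31 for *Mir182* and 6.87 ± 0.42 for *Mir183*, the last below the reference.

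The 4 retinas were alike in most transcripts. The median SD over symbols was 0.07 and its 95th percentile 0.18, and it was 0.04 for symbols over 12 and 0.11 for those under 6. An SD over 0.3 was reached by 240 symbols (1.11%), over 0.5 by 91 and over 1 by 22. Of the 240, 121 were above the reference, and 1 was over 12. Replicate 4 was the array farthest from the rest and higher in 168 of the 240, and farthest and lower in 7. Replicate 2 was farthest and lower in 25. Without replicate 4 the number of symbols with an SD over 0.3 was 111, of which 82 were among the 240, and without each other replicate it was 295 to 308.

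**Figure D4:**
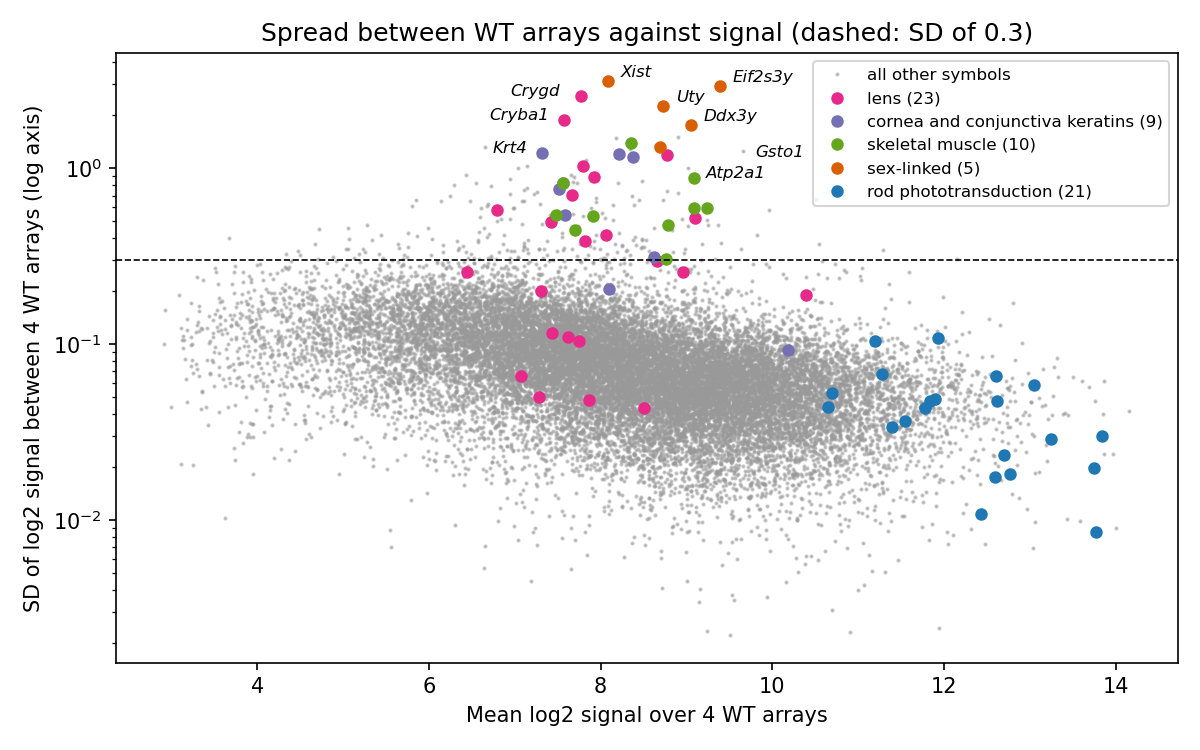
Each point is 1 symbol, with mean log2 signal over 4 WT arrays on the horizontal axis and the SD between arrays on a log axis. Above the SD of 0.3 (dashed) lie 11 of 23 lens genes, 7 of 9 keratins, 10 of 10 muscle genes and 5 of 5 sex-linked genes (coloured), and rod genes (blue) lie at the right with SDs of at most 0.11.

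The largest spread belonged to sex-linked transcripts. *Xist*, the RNA that coats the inactive X chromosome of females, gave 6.44, 12.80, 6.65 and 6.46. The Y-linked genes showed the reverse, with 11.07, 4.98, 10.63 and 10.89 for *Eif2s3y*, 9.91, 5.35, 9.86 and 9.79 for *Uty*, 9.82, 6.42, 9.93 and 10.02 for *Ddx3y* and 9.41, 6.70, 9.26 and 9.37 for *Kdm5d*. Replicate 2 had the pattern of a female retina and the other 3 that of male retinas, while the labels give no sex. Of 839 X-linked symbols, 14 (1.67%) had an SD over 0.3, against 1.11% of all symbols, and only some of these were highest in replicate 2 (6 of 14). Another 6 were highest in replicate 4. Among those highest in replicate 2 were *Xlr3a*, *Xlr3b* and *Xlr3c* (7.05, 6.88 and 6.93 there), which are close copies of each other. Their means were under the reference, and they stood apart by low signals in replicate 3 (5.73, 5.10 and 5.51). *Mid1*, at the edge of the region that X and Y share, gave 10.07, 11.48, 10.06 and 10.41, and the X-linked partners of the 4 Y genes were highest in replicate 2 as well, with 11.25, 11.49, 11.26 and 11.17 for *Ddx3x*, 10.87, 11.38, 10.98 and 10.92 for *Eif2s3x*, 10.36, 10.79, 10.43 and 10.34 for *Kdm5c* and 9.80, 10.35, 9.84 and 9.72 for *Kdm6a*. These 4 partners are known to escape X inactivation.

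Replicate 4 stood apart in genes of lens and of surface epithelium. The lens list (23 genes) had means of 7.59, 7.60, 7.79 and 8.66 in replicates 1 to 4. Of its genes 20 were highest in replicate 4, some by small gaps. Of the 1115 olfactory receptors 659 were highest there too, so this count alone is not particular to lens. *Crygd*, a gamma crystallin, gave 5.68, 6.06, 8.07 and 11.27, *Cryba1* gave 6.34, 6.31, 7.37 and 10.29, and *Cryaa*, the alpha crystallin, gave 8.02, 8.03, 8.50 and 10.52. The lens membrane and filament genes *Lim2* (7.88, 7.79, 7.90 and 7.88) and *Bfsp2* (7.23, 7.31, 7.26 and 7.34) did not share this. Keratins of cornea and conjunctiva had means of 7.79, 7.75, 7.91 and 9.20, and *Krt5*, of basal epithelium, gave 7.66, 7.45, 7.73 and 10.01. *Krt15* gave 7.70, 7.71, 7.97 and 10.10. *Adh1*, *Emp1*, *Muc4* and *Gsto1*, outside the lists, were also highest in replicate 4, by more than 2 log2 over the next array. With replicate 4 left out, no keratin had an SD over 0.3, against 7 of 9 with it, and 3 lens genes did, against 11.

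Skeletal muscle genes had another order. All 10 skeletal muscle genes were highest in replicate 4, and 9 were lowest in replicate 2. The fast myosin light chain *Myl1* gave 7.96, 6.65, 8.90 and 9.90, and the calcium pump *Atp2a1* gave 8.72, 8.04, 9.60 and 9.98. Outside the list, among the symbols named for their large SD, the matrix proteoglycan *Dcn* gave 7.91, 7.31, 10.17 and 10.19, and the imprinted RNA *H19*, abundant in young muscle and mesenchyme, 8.54, 7.85, 9.75 and 9.94, high in both replicates 3 and 4. Without replicate 4, 9 of the 10 muscle genes had an SD over 0.3. Pigment epithelium genes were highest in replicate 4 in 14 of 16 cases, with list means of 8.66, 8.54, 8.40 and 8.89. Olfactory receptors had means of 5.82, 5.85, 5.86 and 5.97, so replicate 4 was also 0.1 higher in signals that belong to none of these tissues. Of the 1115 olfactory receptors 659 were highest in replicate 4 and 326 lowest in replicate 2. Highest in replicate 4 were also 35 of 47 keratin associated protein genes and 25 of 39 Hox genes, but 1 of 21 rod genes. The counts of muscle and pigment epithelium genes are to be read against these. The 14 lists of retinal neurons and glia moved less, by 0.02 to 0.12 between their highest and lowest array means, and 12 of them were lowest in replicate 4. Bipolar cell genes had means of 10.27, 10.23, 10.20 and 10.16, and ribbon synapse genes 11.39, 11.38, 11.37 and 11.31. These 14 lists share some genes. The share of other tissue in each dissected retina is not recorded, and its part in these values was not tested.

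**Figure D5:**
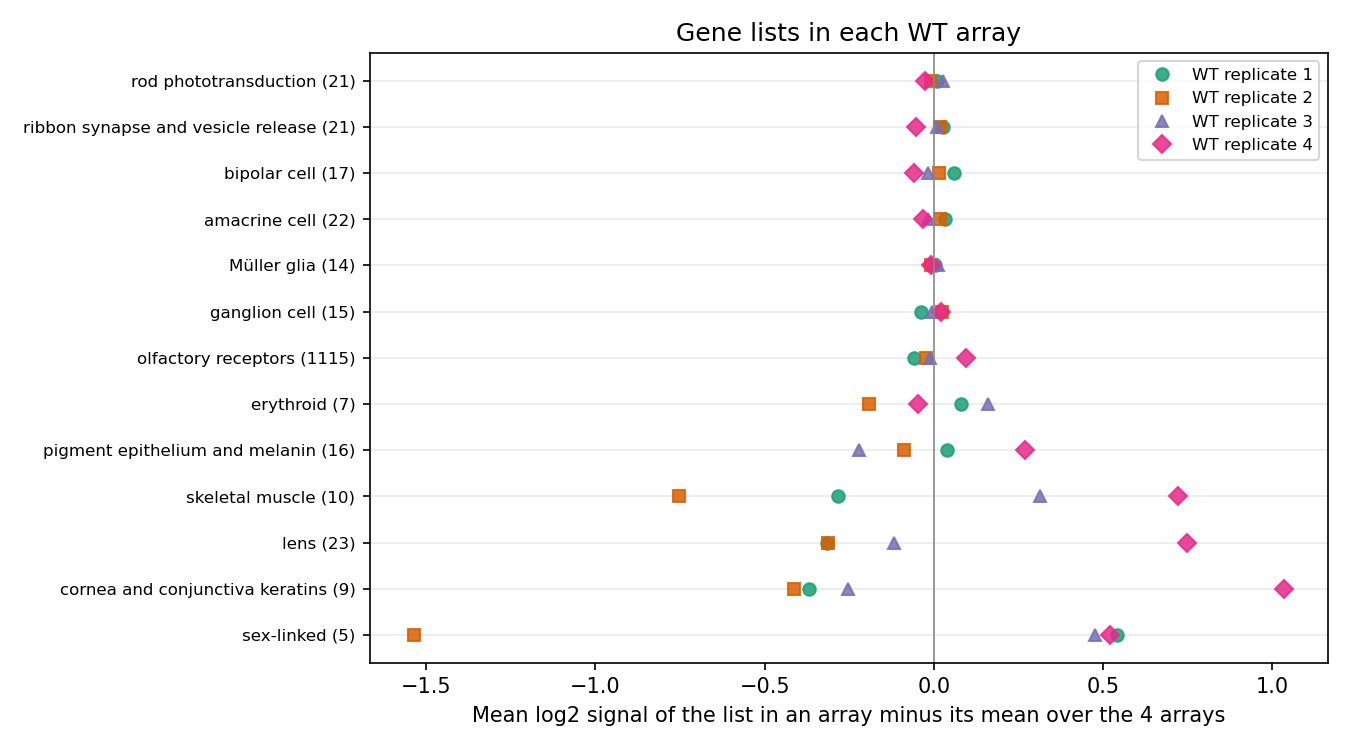
For 13 gene lists, with the number of genes in parentheses, the horizontal axis gives the list's mean log2 signal in an array minus its mean over the 4 WT arrays. Retinal lists lie within 0.1 of 0, replicate 4 (diamonds) is highest in muscle, lens and keratin genes, and replicate 2 (squares) is lowest in muscle and sex-linked genes.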

How the data were processed

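Total RNA of each WT retina was hybridized to 1 Mouse Gene 1.0 ST array. The deposited values are log2 signals per probe set, which the authors made from the scanned arrays by robust multichip averaging (RMA: background correction, quantile normalization and summary over probes) with Affymetrix software. Neither its version nor the annotation's genome build is stated in what was read for this work. The authors' own comparison with R 2.12.1 and limma 3.6.9 gave fold change and p-value columns, which were not used. Quantile normalization forces the arrays to 1 distribution, so signals and spreads are relative. Arrays hold no read depth, and their number (4) limits the precision. No column of another series' samples was found (0 columns).

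The values were used as deposited, with Python 3.11.15, numpy 2.4.6, pandas 2.3.3 and matplotlib 3.10.9. A symbol took its brightest probe set over the 4 arrays, and probe sets with no symbol or several were left out. The reference level was the 95th percentile of olfactory receptors. With 1 group, no test between groups was run and no p-value is given. The named genes were the 25 brightest symbols, the 20 of largest SD above the reference, the 4 brightest and the dimmest of each of 45 lists (the 3 brightest of a family), the markers, the genes the study followed up, and all lens and sex-linked members. Some genes under this rule are not reported here. Other genes were chosen after their values had been seen. The members and lists were chosen with earlier results of these data known. Of 501 list entries 497 were found, 7 of them by an older symbol. Promoters and microRNAs came from RefSeq tables (GRCm38.p6), matched by symbol or accession. The scripts were tested on simulated data. Alternatives were the mean over probe sets, a common array median, the median over arrays, the annotated table, no probe sets marked for related sequences, other reference levels, an SD of 0.5 and leaving out each array.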

Additional observations from a re-analysis of the deposited data

Results flagged for a closer look

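Among 241 named genes and 45 gene lists, 21 genes and 4 lists had 1 array far from the other 3, by a gap that, as a share of the range, exceeded Dixon's 95% critical value for 4 values. Chance marks about 1 in 20 groups of 4, and over all symbols 1259 (5.81%) were marked. The named genes were chosen in part for their spread, as the 20 of largest SD and all lens and sex-linked members. Their count is therefore not comparable with these shares. Replicate 4 was the higher array in 12 of the 21 genes and the lower in 1, and replicate 2 was the lower in 5 and the higher in 1. Of the 1259 symbols, replicate 4 was the higher array in 421 and the lower in 183, and replicate 2 the lower in 83 and the higher in 108.

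In replicate 4 the epithelial keratins *Krt5* and *Krt15* stood at 10.01 and 10.10, and the keratin list had a mean of 9.20 against 7.75 to 7.91 in the others. The airway-type enzymes *Cbr2* and *Cyp2f2* stood at 9.49 and 9.03, against at most 7.50 and 7.26. The crystallins *Crygs*, *Cryge* and *Crybb3* stood at 9.34, 9.26 and 9.10, and the lens filament gene *Bfsp1* at 7.90, against 7.69 to 7.70. *Krtap17-1* (9.86), *Hoxb3* (8.54), the replication helicase gene *Mcm2* (8.42) and the protamine *Prm2* (8.03) were higher by less than 0.3. *Tshz2* was lower, at 8.38 against 8.51 to 8.53, and so was the cilium list, with a mean of 10.18 against 10.23.

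In replicate 2 *Xist* was higher (12.80) and *Eif2s3y*, *Uty*, *Ddx3y* and *Kdm5d* were lower (4.98, 5.35, 6.42 and 6.70), so that the mean of the sex-linked list was 7.25. *Lim2* of the lens was lower there as well, at 7.79 against 7.88 to 7.90. In replicate 1 the ribosomal protein gene *Rpl21* (13.09) and the list of small nucleolar RNAs (mean 8.76, against 8.66 to 8.67) were higher. In replicate 3 *Onecut2*, a factor of horizontal cells, was lower, at 8.76 against 8.90 to 8.93.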

How the results depend on the processing

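The number of symbols above the reference, 14796, was 14759 to 14848 when 1 array was left out, 14930 with the mean over probe sets, 14785 with the median over arrays, 11950 with the olfactory 99th percentile as the reference and 14273 of 20758 symbols without marked probe sets. The number with an SD over 0.3, 240, ranged from 111 to 308 when 1 array was left out, and 111 was the value without replicate 4. It was 127 with the median absolute deviation, which sets 1 deviating array aside, and 91 with an SD over 0.5. Without marked probe sets 13 of the 25 brightest symbols remained, and 27 named genes had no value. That setting also moved the erythroid median by 3.29, since it drops all 4 globins. Of 45 lists, 31 had medians above that of all symbols, and 30 to 31 when 1 array was left out. No paired analysis was possible because only 1 group was described and no test was run.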

Other observations

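A few microRNA precursors were low in replicate 4. Of the 324 precursor symbols, 8 had an SD over 0.3, and all 8 were lowest in replicate 4, whereas over all precursors 77 were lowest and 133 highest there. The neuronal *Mir124a-1* gave 9.12, 9.12, 9.37 and 8.20, and *Mir182* of the photoreceptor cluster gave 8.24, 8.17, 8.12 and 7.57. *Mir181a-1* gave 7.84, 8.12, 7.95 and 7.06, and *Mir183* gave 6.99, 6.94, 7.28 and 6.29. The other 4 were *Mir190b*, *Mir15b*, *Mir376a* and *Mir495*, with means from 5.46 to 6.16, under the reference. These genes were chosen after their values had been seen, and no cause was tested.

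Probe sets with no gene symbol also carried signal. Of 3344, 1355 (40.5%) were above the reference, and the brightest reached 14.03. Of 1801 symbols read by more than 1 probe set, 709 had a gap of more than 1 between the brightest and the dimmest and 107 a gap of more than 3.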
